A study of Rattus norvegicus with 8 samples.

Results

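The genes examined here are 10 genes typical of brown and white fat cells, measured in left ventricular heart muscle of the rat. They are Ucp1, Cidea and Elovl3 for brown fat, Adipoq, Plin1, Cfd, Lep and Retn for white fat or fat cells in general, and the fat-making enzymes Fasn and Scd1. The genes were selected on results of these same data, with their log2 values in the 8 ventricles and their PD5 minus SHR differences already known. A gene's value is the mean log2 value of all probe sets annotated to that gene alone. Of the 10 genes 9 were measured, among 17309 genes in all. No probe set was annotated to Fasn alone, and Fasn was not analysed here. Their strain differences are therefore given as a description with no test.

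The study compared 2 groups of 4 male rats aged 2 months, with 1 array per animal. SHR, the spontaneously hypertensive rat, is an inbred model of high blood pressure. PD5 is a minimal congenic strain derived from it, meaning that a short donor segment was bred into SHR, and the labels do not give that segment. Both strains were bred in-house and ate standard chow with no treatment, and RNA came from frozen ventricular muscle. The animals are PD5 207, 209, 210 and 212 and SHR 213, 215, 218 and 219. Array medians lay between 6.93 and 6.98 on the log2 scale. The deposited values carry no detection call, so a low value cannot be told from background, and the number of arrays limits the precision.

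Fat cells store triglyceride in droplets coated by perilipin and send out hormones such as adiponectin and leptin. White fat keeps 1 large droplet per cell for storage, whereas brown fat has many small droplets and burns fat for heat through UCP1, a proton channel of the inner mitochondrial membrane that uncouples respiration from ATP synthesis. Heart muscle burns fatty acids but is not a storage tissue, and in rats brown fat lies in the chest near the heart and the great vessels.

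One array stood apart in some of these genes. PD5 210 had the highest value of the 8 animals in 6 of the 9 measured genes, beside 14.8% of all genes. The 6 were Ucp1, Cidea, Adipoq, Plin1, Retn and Scd1, with a lead of 0.08 in Cidea. Nothing is read from this count, because the genes were chosen with their values known. In Ucp1 and Adipoq PD5 210 lay more than 1 log2 unit above every other animal. Strain differences are therefore given with and without it. The array was not apart in Elovl3, Cfd or Lep. In RNA of whole tissue, more or fewer cells of a type and more or less RNA per cell cannot be told apart.

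Upstream sequences of a few of the genes are shown because the genes split by this animal: Ucp1 and Adipoq had their highest value in PD5 210, while Elovl3 and Lep did not. The sequences are the 250 bases before the annotated transcript start, from RefSeq on the GRCr8 assembly, for Ucp1 at chr19:41721422-41721671 on the minus strand, Adipoq at chr11:91240170-91240419 on the minus strand, Elovl3 at chr1:254938481-254938730 on the plus strand and Lep at chr4:58626288-58626537 on the plus strand. Capitals mark matches, on either strand, to the TATA box (TATAAA), to the CCAAT box or to TTNCGNAA, a form of the site of C/EBP factors, which drive fat cell differentiation.
Ucp1: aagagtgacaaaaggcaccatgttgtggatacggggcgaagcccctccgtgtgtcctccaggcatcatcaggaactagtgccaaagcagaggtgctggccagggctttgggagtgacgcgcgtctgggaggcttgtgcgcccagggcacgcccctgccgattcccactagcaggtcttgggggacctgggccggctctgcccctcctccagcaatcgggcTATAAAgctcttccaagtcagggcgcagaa
Adipoq: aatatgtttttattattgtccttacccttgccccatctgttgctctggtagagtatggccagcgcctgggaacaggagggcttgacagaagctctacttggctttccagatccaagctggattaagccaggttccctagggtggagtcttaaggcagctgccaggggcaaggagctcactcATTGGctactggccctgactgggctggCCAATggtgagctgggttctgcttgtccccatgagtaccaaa
Elovl3: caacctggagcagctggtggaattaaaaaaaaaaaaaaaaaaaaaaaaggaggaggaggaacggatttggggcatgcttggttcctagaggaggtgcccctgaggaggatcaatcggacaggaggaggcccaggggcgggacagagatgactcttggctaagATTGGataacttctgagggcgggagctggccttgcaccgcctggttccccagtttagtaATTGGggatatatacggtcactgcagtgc
Lep: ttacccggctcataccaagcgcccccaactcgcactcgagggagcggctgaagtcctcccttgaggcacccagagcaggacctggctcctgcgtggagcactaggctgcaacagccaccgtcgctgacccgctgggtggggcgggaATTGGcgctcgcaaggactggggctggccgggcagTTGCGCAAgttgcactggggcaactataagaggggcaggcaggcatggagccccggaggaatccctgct

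All 9 measured genes had such a sequence, that of Scd1 under its current symbol Scd. TATAAA was found in Ucp1, starting 30 bases before the start, and in no other of the 9; it was present in 12.9% of 33469 rat promoters of this length. CCAAT was found in 4 of the 9 (Elovl3, Adipoq, Plin1 and Lep) and in 34% of all. The site TTNCGNAA was found in Lep, 69 bases before the start, and in 2.13% of all. TGACGTCA, a cyclic AMP response element, and CACGTG, an E-box, matched none of the 9 windows on either strand and were present in 1.59% and 5.59% of all. The DR1 element, bound by PPAR and RXR, was searched as its direct repeat and also matched none, beside 0.0508% of all. Of the genes shown, CCAAT was thus present in 1 gene that was high in PD5 210 and in 2 that were not. Plin1, not shown, also had CCAAT and was highest in PD5 210. The genes shown were picked by their values in that animal, so nothing is read from this. A match is a description of these letters only.

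Ucp1 had by far the widest spread of the measured fat genes. Its log2 values were 3.79, 4.42, 9.05 and 4.83 in PD5 207, 209, 210 and 212, and 4.77, 4.06, 4.15 and 4.29 in SHR 213, 215, 218 and 219. PD5 210 was far above the rest, while the other 3 PD5 animals overlapped with the 4 SHR animals. Its distance to the next animal, PD5 212, was 4.21 between the deposited log2 values, and no other of the 17309 genes had a larger one. The values of the other 7 animals are low and cannot be told from background, so no fold is given. The PD5 mean was 5.52 ± 2.39 and the SHR mean 4.32 ± 0.31 (SD over 4 animals each, as in all means below). The strain difference of 1.20 became 0.03 without PD5 210.

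The Ucp1 signal of PD5 210 was present all along the gene's probe sets. In each of the 8 probe sets this animal was the highest, by 2.99 to 4.91 log2 units over the next. The probe set with the widest lead read 10.29 in PD5 210 and 3.21 to 5.38 in the other 7 animals. Another read 10.11 against 6.05 to 6.58, the narrowest range among the other animals of any Ucp1 probe set.

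The other brown fat genes did not show this pattern. Cidea was high in all 8 animals, and Elovl3 was so low that it cannot be told from background. This limits what either gene can show. Cidea, a protein of the droplet surface that brown fat cells make in quantity, was at 10.82, 11.01, 11.22 and 10.98 in the PD5 animals and at 11.08, 11.14, 11.12 and 11.03 in the SHR animals. All 8 lay within 0.40, and although PD5 210 was the highest, it exceeded SHR 215 by 0.08. Elovl3, an enzyme that lengthens fatty acids and is induced in brown fat by cold, was at 4.45, 4.89, 4.56 and 4.62 in PD5 and 4.86, 4.22, 4.83 and 4.73 in SHR. There PD5 210 ranked 6 of 8 animals and the strains overlapped throughout. The strain differences were -0.09 for Cidea and -0.03 for Elovl3, and -0.16 and -0.01 without PD5 210. In Elovl3 PD5 210 was the highest in 1 of 6 probe sets, by 0.03, and in Cidea in 4 of 6, by at most 0.34.

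**Figure D1:**
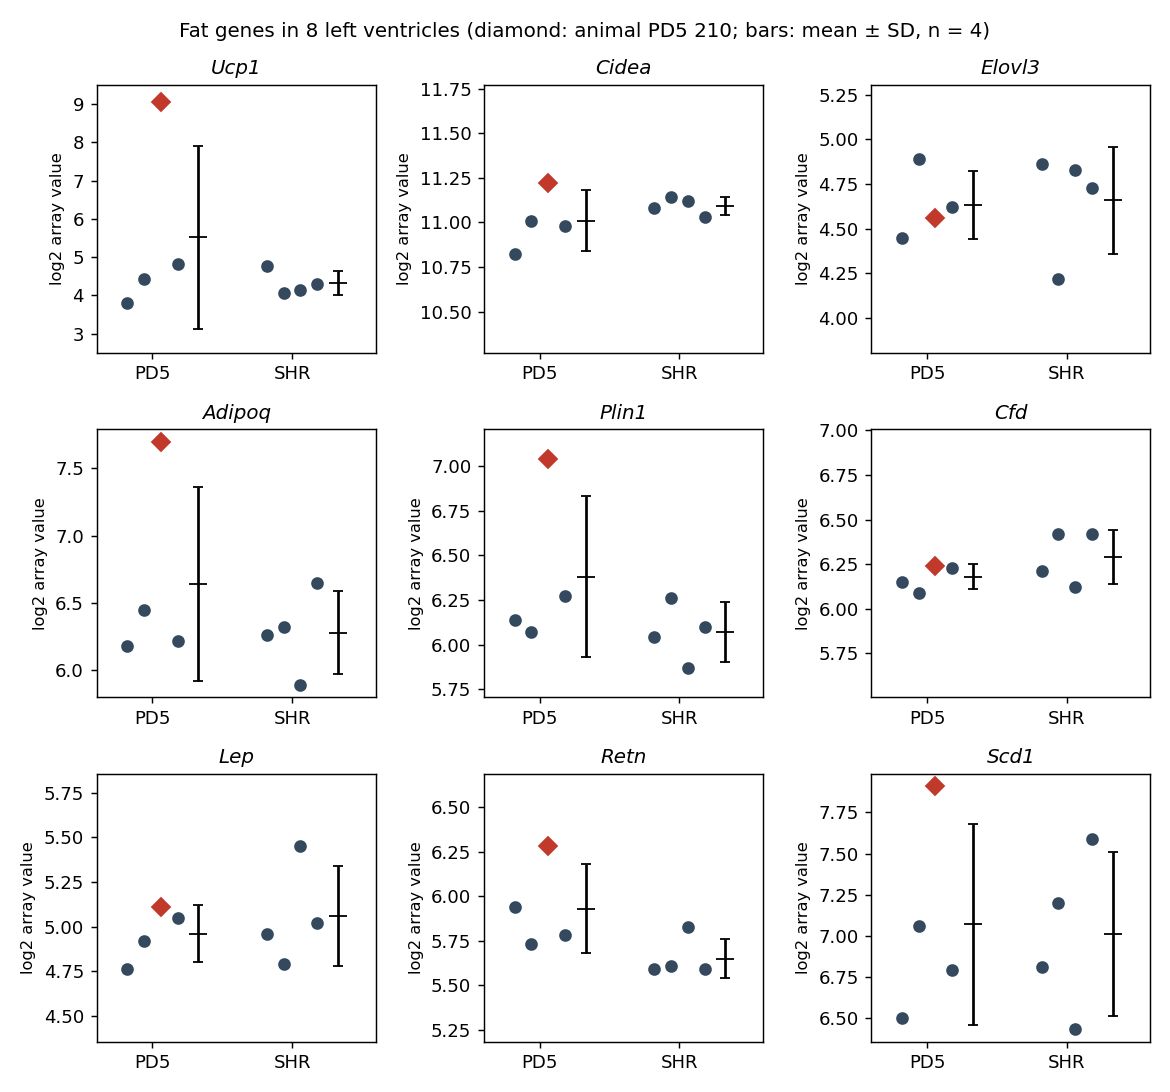
Log2 array value (vertical axis, a separate range for each gene) of the 9 measured fat genes in 4 PD5 and 4 SHR ventricles; each point is 1 animal, the red diamond is PD5 210 and the bars show the mean ± SD. PD5 210 lies at 9.05 in Ucp1, 7.70 in Adipoq and 7.04 in Plin1, above all other animals, and within their range in Elovl3, Cfd and Lep.

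Adipoq, which encodes the hormone adiponectin and is made by brown and white fat cells alike, was at 6.18, 6.45, 7.70 and 6.22 in the PD5 animals and at 6.26, 6.32, 5.89 and 6.65 in the SHR animals. PD5 210 was again the highest, 1.05 log2 units above SHR 219, which was next. All 4 Adipoq probe sets had their highest value in PD5 210, by 0.75 to 1.53. The PD5 mean was 6.64 ± 0.72 and the SHR mean 6.28 ± 0.31, and the difference of 0.36 became 0.00 without PD5 210.

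Plin1, the coat protein of fat cell droplets, was at 6.14, 6.07, 7.04 and 6.27 in PD5 and at 6.04, 6.26, 5.87 and 6.10 in SHR. PD5 210 lay 0.77 above PD5 212, and the other 7 animals lay between 5.87 and 6.27. The probe sets of Plin1 disagreed: in 8 of 10 PD5 210 was the highest, with a lead of up to 1.84, whereas in 1 of the others it was the lowest, at 6.03 against 6.30 to 7.43. The strain difference was 0.31 with all arrays and 0.09 without PD5 210. It turned to -0.22 when the brightest probe set, in place of the mean of all 10, stood for the gene.

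The fat hormones and secreted proteins other than adiponectin showed little of this. Lep, which encodes leptin and in rodents is made far more by white than by brown fat, was at 4.76, 4.92, 5.11 and 5.05 in the PD5 animals and at 4.96, 4.79, 5.45 and 5.02 in SHR. The highest animal was SHR 218, and PD5 210 was next, 0.34 below it. Cfd, the complement protease adipsin that fat cells secrete, was at 6.15, 6.09, 6.24 and 6.23 in PD5 and 6.21, 6.42, 6.12 and 6.42 in SHR. All 8 values of Cfd lay within 0.33, and PD5 210 was the highest in 0 of its 6 probe sets. The differences were -0.10 for Lep and -0.12 for Cfd, and -0.15 and -0.14 without PD5 210.

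Retn, which encodes resistin, a hormone of rodent white fat cells, was at 5.94, 5.73, 6.28 and 5.78 in PD5 and 5.59, 5.61, 5.83 and 5.59 in SHR. PD5 210 led by 0.33, and the strains overlapped only through SHR 218, which lay above PD5 209 and PD5 212. Of the 5 probe sets 1 carried the lead of PD5 210, at 7.44 against 5.48 to 5.97 in the other animals. In the other 4 probe sets PD5 210 lay 0.01 to 0.53 below the highest animal. The PD5 mean was 5.93 ± 0.25 and the SHR mean 5.65 ± 0.11, with a difference of 0.28, or 0.16 without PD5 210.

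Scd1, an enzyme that makes monounsaturated fatty acids for storage and is not restricted to fat cells, was at 6.50, 7.06, 7.91 and 6.79 in PD5 and at 6.81, 7.20, 6.43 and 7.59 in SHR. PD5 210 was the highest and SHR 219 next, 0.32 below, and the strains overlapped over most of their range. In 5 of 6 probe sets PD5 210 was the highest. The strain difference was 0.06 with all arrays and -0.22 without PD5 210. Probe sets annotated Scd, a name that today means the same gene and formerly meant Scd2, were kept apart. They lay between 9.08 and 9.19 in the PD5 animals and between 8.79 and 9.05 in the SHR animals. Here the strains did not overlap, all PD5 animals being higher, as in either direction in 3.46% of all genes. The difference was 0.20 (adjusted p = 0.775 in limma), or 0.18 without PD5 210. The probe sets under these 2 names thus differ in their pattern.

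**Figure D2:**
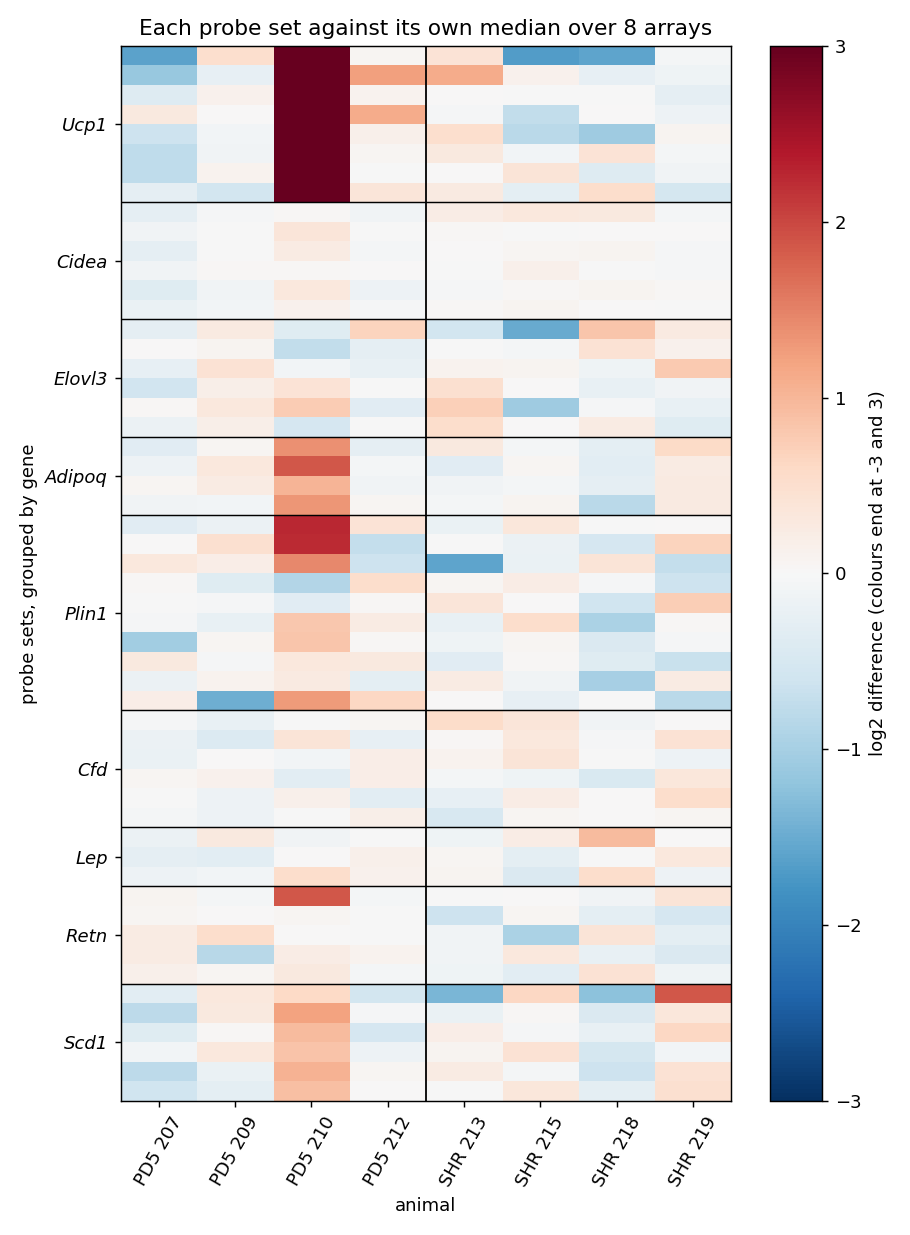
Each row is 1 probe set of the 9 measured genes and each column 1 animal; colour is the log2 difference from that probe set's median over the 8 arrays. All 8 probe sets of Ucp1 and all 4 of Adipoq have their highest value in PD5 210, against 8 of 10 in Plin1, 1 of 5 in Retn and 0 of 6 in Cfd.

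Over strains, 5 of the 9 genes were higher in PD5 and 4 lower, with a median difference of 0.06 beside 0.00 over all genes. Without PD5 210 the median was -0.01, 3 genes were above 0, and all 9 lay within 0.25 of 0. The mean difference of Ucp1, Cidea and Elovl3 went from 0.36 to -0.05. The 2 strains overlapped in each of the 9 genes, while in 3.46% of all genes they did not. Nothing is read from this count, because the genes were chosen with this comparison known.

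**Figure D3:**
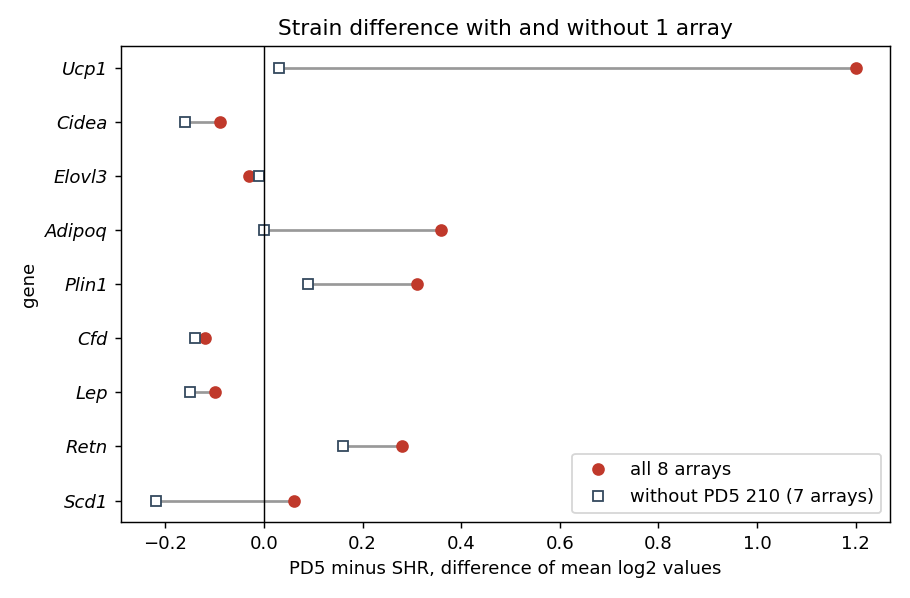
PD5 minus SHR, the difference of mean log2 values on the horizontal axis, for 9 genes; red circles use all 8 arrays and open squares leave out PD5 210. Ucp1 moves from 1.20 to 0.03 and Adipoq from 0.36 to 0.00, while Cidea, Elovl3, Cfd and Lep move by less.

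A further 70 measured genes of fat cells were described in 5 lists: brown fat genes, general fat cell genes, genes of white depots, fatty acid synthesis, and droplets with lipolysis. These lists, too, were chosen with earlier results of these data known. PD5 versus SHR was tested in limma over all genes, and 0 of the 70 passed, beside 0.052% of all genes. The smallest adjusted p was 0.775, and 4 of them, or 5.71%, had an unadjusted p under 0.05, beside 5.68% of all genes. Their median difference was -0.01, and -0.04 without PD5 210. The 4 were Ebf2 and Insig1, higher in PD5, and Lipe and Fabp4, lower in PD5, all but Lipe named after their values were seen.

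Of the general fat cell genes 21 of 23 were measured, 8 higher and 13 lower in PD5, with a median of -0.05, or -0.07 without PD5 210. PD5 210 was the highest animal in 5 of the 21 and the lowest in another 5. Over all genes it was the highest in 14.8% and the lowest in 14.3%, shares that also stand beside the list counts below. Pck1, which supplies glycerol for triglyceride in fat cells, was at 6.01, 6.18, 7.66 and 5.89 in PD5 and at 5.98, 6.06, 5.88 and 6.24 in SHR. Cidec, a droplet fusion protein of fat cells, was at 5.51, 5.59, 6.96 and 5.33 in PD5 and at 5.57, 5.64, 5.59 and 5.93 in SHR. In both genes PD5 210 was the highest by more than 1 log2 unit and SHR 219 was next. The strain differences were 0.40 for Pck1 and 0.17 for Cidec (adjusted p = 0.989 and 0.992 in limma), and -0.01 and -0.21 without PD5 210. Acvr1c, a receptor of the TGF-beta family found on fat cells, was highest in PD5 210 by 0.46, while Tshr, the thyrotropin receptor, was highest in SHR 219 and next in PD5 210, 0.11 below. The 5 genes lowest in PD5 210, named after their values were seen, were Fabp4, a fatty acid carrier of fat cells and capillaries, the glucose transporter Slc2a4, the lipase Lpl, the melanocortin receptor partner Mrap and Orm1. Fabp4 was at 9.85 in PD5 210 and at 10.30 in SHR 215, the highest animal. Mrap was at 5.38 in PD5 210 and between 5.60 and 6.01 in the others. Slc2a4 and Lpl were high in all animals and lowest in PD5 210 by little. Slc2a4 was at 10.21 there and at 10.27 to 10.41 in the others, and Lpl at 12.41 and at 12.45 to 12.66.

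In fatty acid synthesis 18 of 20 genes were measured, 7 higher and 11 lower, with a median of -0.02, or -0.05 without PD5 210. The highest animal was PD5 210 in 6 of the 18 and the lowest was PD5 210 in 1, Fads2. Thrsp, a nuclear protein of lipogenic tissues also called Spot 14, was at 5.98, 6.24, 8.81 and 6.13 in PD5 and at 6.44, 6.53, 6.17 and 6.68 in SHR. Its lead in PD5 210, 2.13 log2 units over SHR 219, ranked 2 among all genes, after Ucp1. The strain difference was 0.34 (95% interval -0.91 to 1.59, adjusted p = 0.992 in limma), and -0.34 without PD5 210. Smaller leads of PD5 210 were 0.28 in Dgat2, which completes triglyceride synthesis, 0.15 in the lipase gene Pnpla3 and 0.13 in Elovl6, which lengthens palmitate.

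Among brown fat genes beyond Ucp1, Cidea and Elovl3, 18 of 22 were measured, 9 higher and 9 lower. PD5 210 was the highest animal in 1 of the 18 and the lowest in 4. None set PD5 210 apart by 0.5 or more. Dio2, the enzyme that activates thyroid hormone in brown fat, was highest in SHR 219 and next in PD5 210, with all animals between 5.16 and 5.88. Adrb3, the beta3-adrenergic receptor of fat cells, was highest in PD5 210 by 0.18. Slc27a2, a fatty acid activating enzyme, was highest in PD5 209, and Fabp3, a fatty acid carrier that heart muscle itself makes, ranged from 12.50 in PD5 212 to 13.10 in SHR 219. The 4 genes lowest in PD5 210, named after their values were seen, were Cox8b, Cpt1b, Letmd1 and Ppargc1a. Cox8b and Cpt1b, brown fat genes that heart muscle also makes, varied by 0.12 and 0.13. Letmd1 varied by 0.20, and Ppargc1a was at 10.03 in PD5 210 and at 10.10 to 10.47 in the others.

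Of 8 genes that mark white depots 7 were measured, 5 higher and 2 lower, with a median of 0.03 that turned to -0.01 without PD5 210. PD5 210 was the highest animal in 2 of the 7, Nnat and Tcf21, and the lowest in 1, Hoxc8. Hoxc10, a positional gene of rear-body fat, ranged from 4.11 in SHR 219 to 5.89 in PD5 209, with PD5 210 at 4.90. Slc7a10, an amino acid transporter of white fat cells, was highest in PD5 209, and Sncg in SHR 219. Nnat, a small membrane protein, was highest in PD5 210 by 0.32, and the transcription factor Tcf21 by 0.11. In the droplet and lipolysis list 9 of 11 genes were measured, 3 higher and 6 lower, with a median of -0.03, or -0.06 without PD5 210. Beside Cidec, it holds Lipe, the hormone-sensitive lipase, with a PD5 mean of 8.65 ± 0.08 and an SHR mean of 8.82 ± 0.09 (limma, adjusted p = 0.844). Its difference was -0.17, and -0.20 without PD5 210. G0s2, an inhibitor of lipolysis, was highest in PD5 209, and the lipase activator Abhd5 ranged over 0.29.

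**Figure D4:**
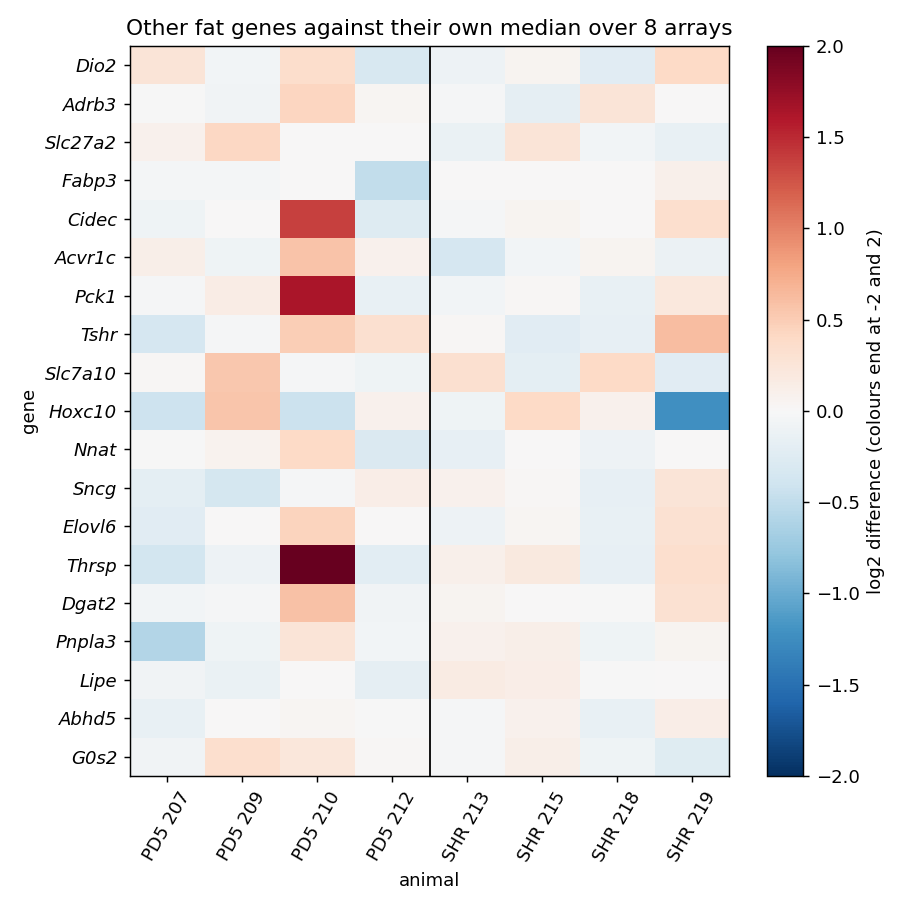
Fat cell genes beyond the 9, in rows, against animals in columns; colour is the log2 difference from each gene's median over the 8 arrays. Thrsp, Pck1 and Cidec are darkest in PD5 210, with leads of 2.13, 1.42 and 1.03 over the next animal, while Hoxc10 and Slc7a10 are highest in PD5 209.

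Across the 70 listed fat genes, the 9 chosen genes left out, PD5 210 was the highest animal in 15, or 21.4%, beside 14.8% of all genes, and the lowest in 11, or 15.7%, beside 14.3% of all genes. SHR 219 was the highest in 14, or 20%, beside 18.4% of all genes. The lists were chosen with earlier results of these data known, so nothing is read from these shares. Where PD5 210 was the highest, SHR 219 was next in 7 of the 15: Cidec, Dgat2, Elovl6, Pck1, Plin5, Tcf21 and Thrsp. Over all genes, whichever animal was the highest, SHR 219 was second in 12.2%. The share among all genes led by PD5 210 was not examined, so nothing is read from the 7. The lead of PD5 210 was only 0.07 in Plin5 and 0.11 in Tcf21. In Ucp1 SHR 219 ranked 5. Of all 17309 genes, 17 had a highest animal at least 1 log2 unit above the next, and in 9 that animal was PD5 210. Of these 9, 3 were listed fat genes (Thrsp, Pck1 and Cidec), 2 were the chosen Ucp1 and Adipoq, and each of the remaining 4 rested on 1 probe set. The other 7 arrays held 0 to 4 such genes each and 0 of the fat genes. Fat genes made up 79 of the 17309 genes. Nothing is read from these counts, because the 9 genes and the lists were chosen with earlier results known.

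**Figure D5:**
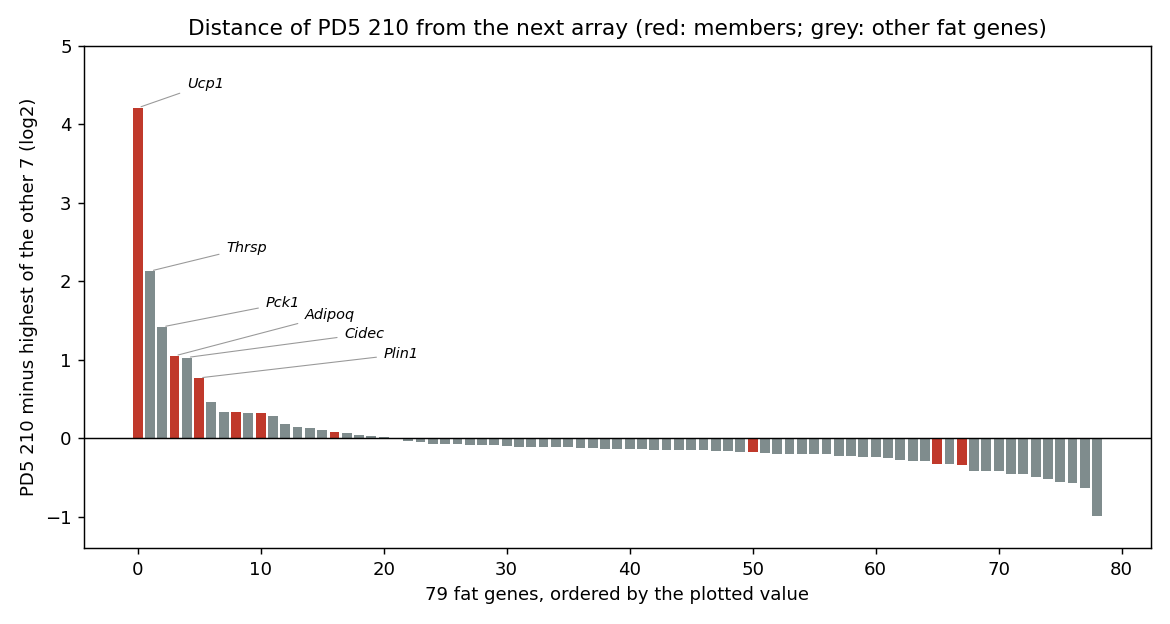
Value of PD5 210 minus the highest of the other 7 animals (log2, vertical axis) for 79 fat genes in order of that difference; red bars are the 9 genes chosen and grey bars the other 70. Ucp1 stands at 4.21, Thrsp at 2.13, Pck1 at 1.42, Adipoq at 1.05, Cidec at 1.03 and Plin1 at 0.77, and most other genes lie below 0.

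The genes with profiles nearest to these, by the root mean square difference of centred log2 values over the 8 animals, are given without any reading of shared function. Nearest to Adipoq were Pck1 (0.128), Car3 (0.137), Or2ak5f (0.147), Cdo1 (0.158), Cidec (0.166), Rpl37l3 (0.181), Klk1c10 (0.197) and Rbp4 (0.216). Car3, a carbonic anhydrase abundant in fat and slow muscle, was at 9.85 in PD5 210 and between 8.32 and 8.97 in the others. Cdo1, which breaks down cysteine, was at 8.94 in PD5 210 and 8.37 in SHR 219, with the others between 7.45 and 7.84. Rbp4, the retinol carrier that fat also secretes, was at 7.95 in PD5 210 and between 6.48 and 7.01 in the others. Nearest to Ucp1 were Ly49s5 (0.811), Thrsp (0.816), Pck1 (1.09), Dnajc13 (1.09), Or6c202 (1.11), Adipoq (1.15), Ddx11 (1.17) and Cidec (1.18). Ly49s5, Dnajc13, Or6c202, Ddx11, Or2ak5f and Rpl37l3 rest on 1 probe set each.

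Markers of other cells did not set PD5 210 above the rest in the same way. Cardiomyocyte genes, 8 of 10 measured, had a mean log2 level of 12.55 in PD5 210, the lowest animal, and between 12.56 and 12.65 in the others. PD5 210 was the highest animal in 0 of the 10 mesothelial, 0 of the 11 thymic and 0 of the 5 atrial genes measured. It was also highest in 0 of the 5 skeletal muscle and 0 of the 5 endothelial genes, beside 14.8% of all genes. PD5 210 was the lowest in Krt19 and Krt8 of the mesothelial genes and Bmp10 of the atrial. In the mesothelial genes Msln and Upk1b it was next after SHR 219, at 6.75 and 6.65. Among thymic genes it was the lowest in Rag1, Ptcra, Cd8b, Cd3e and Foxn1. All but Cd8b and Upk1b are named after their values were seen. Over all genes PD5 210 was the lowest in 14.3%. Cd8b was at 4.58 in PD5 210 and at 5.26 to 5.74 in the others. Low values such as these and those of Rag1 cannot be told from background. The mean level of the mesothelial genes was 5.71 to 5.91 in PD5, highest there in PD5 210, and 5.81 to 6.47 in SHR. SHR 219 was the highest of all in this mean and in 6 of the 10 genes, with the widest spread in Upk3b and Upk1b. All 10 genes were lower in PD5, with a median difference of -0.29 beside 0.00 over all genes. With 1 array left out, the difference came as near 0 as -0.08 in Msln and -0.02 in Upk1b, against -0.37 in Upk3b. Nothing is read from this direction. The atrial mean was 8.25 to 9.18 in PD5 and 7.65 to 9.41 in SHR, also highest in SHR 219, with its widest spread in Myl7 and Sln. The thymic mean was 5.54 to 5.78 in PD5, lowest in PD5 210, and 5.67 to 5.88 in SHR, with the widest spread in Psmb11 and Cd8b.

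PD5 210 was the highest animal in 1 of 6 macrophage, 2 of 5 lymphocyte and 1 of 5 nerve genes, beside 14.8% of all genes. In none of them did it stand 0.5 above the rest. It was the lowest in Mrc1, Cd3e and Adgre1, the last named after its values were seen. The macrophage mean ran from 8.44 to 8.48 in PD5 and from 8.54 to 8.75 in SHR, with Cd163 and Mrc1 highest in SHR 219. The lymphocyte mean was 5.59 to 5.76 in PD5 and 5.65 to 5.77 in SHR, and the nerve mean 6.20 to 6.42 and 6.21 to 6.41, where Npy was highest in PD5 210 by 0.04. The endothelial mean was 10.23 to 10.31 in PD5 and 10.17 to 10.28 in SHR, and the skeletal muscle mean 5.69 to 5.85 and 5.56 to 5.79. No marker gene passed the adjusted threshold in limma, and their part in the values of the fat genes was not tested.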

How the data were processed

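RNA of 8 left ventricles, 4 PD5 and 4 SHR, was measured on 8 arrays of 1 colour. Per the labels, RNA integrity numbers were above 8. The deposited values are log2 values of 220231 probe sets, and the submitters' processing notes name Partek 6.6. How the authors corrected background, normalized and summarized them, and the array build, is not stated in the labels. The values were used as deposited. Platform annotation named 1 gene for 166557 probe sets and several for 1631. Symbols were updated through the GRCr8 gene table: 14377 were current, 2837 were replaced and 95 kept. A gene was the mean of its probe sets, which gave 17309 genes.

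Genes were tested with limma 3.58.1 in R 4.3.3 (lmFit and eBayes, two-sided, Benjamini-Hochberg over all genes, threshold 0.05), with no dim filter; intervals are 95% intervals of that fit. The code was checked on simulated data. The strains share no animal number. Nothing in the labels says more than that the animals are separate. Members and lists were chosen with earlier results of these data known. Named genes are the members, the 4 widest-ranging genes per fat list, the 2 widest per marker list and the 8 profiles nearest to Ucp1 and to Adipoq, unnamed loci left out. Alternatives were the median or brightest probe set, median centring, quantile normalization, leaving out the dimmest 25% of genes, a trended robust prior and each array left out.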

Additional observations from a re-analysis of the deposited data

Results flagged for a closer look

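Within each strain the highest or lowest animal's distance to its neighbour, as a share of the strain's range, was compared with Dixon's 95% critical value for 4 samples, for 56 genes and 112 strain groups. Of these, 16 passed. Chance passes about 1 group in 20 among genes not picked by their values, and that rate does not apply here: beside the 9 fat genes, these were picked as the widest-ranging of each list or for a profile near that of Ucp1 or Adipoq. In 10 of them PD5 210 was the highest PD5 animal. These were Thrsp (share 0.91), Dgat2 (0.926), Cidec (0.843), Pck1 (0.838), Cdo1 (0.884), Ddx11 (0.848), Ly49s5 (0.843), Or2ak5f (0.883), Rpl37l3 (0.885) and Klk1c10 (0.915); the genes from Cdo1 onward were picked for their profile alone. Ucp1, Adipoq and Plin1 in PD5 stayed under the critical value. Among the chosen fat genes Retn passed in SHR, where SHR 218 was at 5.83 and the next at 5.61 (0.907).

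The other 5 were Fabp3, low in PD5 212 (0.895) and high in SHR 219 (0.863), Myl7, high in PD5 212 (0.944), Upk3b, low in PD5 212 (0.858), and Cd163, low in PD5 209 (0.852).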

How the results depend on the processing

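Over all genes, 9 passed with the settings given, and 1 to 7 with any 1 array left out, 0 with the brightest probe set, 5 with median centring and 47 with a trended robust prior. Of the 70 listed fat genes, 0 passed under any of the 14 alternatives. With 1 array left out, the mean strain difference of Ucp1, Cidea and Elovl3 ran from -0.05 (without PD5 210) to 0.60, and that of Scd1 from -0.22 to 0.25. Of 180 values of single genes and list medians, 3 moved by more than the spread between animals, all with the brightest probe set: Elovl3 to 0.32, Plin1 to -0.22 and Cfd to 0.07. The cause was not tested. By this measure Ucp1, from 1.20 to 0.03, and Adipoq, from 0.36 to 0.00, did not count as moved without PD5 210. The measure therefore does not show the dependence on that array. Ucp1, Elovl3 and Lep fall in the dimmest 25% of genes and have no value where those are left out. Joining the Scd and Scd1 probe sets, chosen after seeing the data, left the Scd1 difference within that spread. No paired analysis was possible because the strains share no animal number.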
